A study of Mus musculus with 6 samples.

Results

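The genes described here supply serine, folate-bound one-carbon units and cysteine: Phgdh, Mthfd2, Cth and Slc7a11. They are 4 genes of a study list of 3549 entries that differed between B16 melanoma cells and melan-a melanocytes, 2413 of which could be given a gene symbol. The array files name no gene, so each gene was taken from that list by name and its probe by the listed average fold: every probe whose mean ratio over the 6 arrays gave that fold within 0.00051 was kept as a candidate. This gave 14 candidate probes of the 41174 on the array, for 5 entries, since Phgdh is listed under 2 accessions. The mean ratio of a candidate is therefore fixed by the way it was found. The fold match sets no limit on its spread over the arrays, its signals or its dependence on the dye. The test behind the study list (SAM) weighs the mean against the spread, however, so the spread of a listed gene's own probe was limited by that selection. All 4 genes had a mean ratio above 1 on the log2 scale in favour of B16, at 5.22-fold and 9.27-fold for the entries of Phgdh and between 2.81-fold and 3.45-fold for the other genes.

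B16 is a tumorigenic mouse melanoma line, here from the American Type Culture Collection and grown in DMEM with bovine calf serum. Melan-a is a diploid, partially immortalized line of mouse melanocytes that forms no tumors, grown in RPMI 1640 with fetal bovine serum and a phorbol ester. Both lines come from C57BL/6 mice, neither was treated with retinoic acid on these arrays, and they were seeded to reach a similar confluence at harvest. Each of 6 Agilent arrays of the whole mouse genome carried the RNA of both lines from 1 biological replicate. B16 was labelled with Cy3 and melan-a with Cy5 on arrays 1, 3 and 5 (standard labelling), and the dyes were exchanged on arrays 2, 4 and 6 (flip). The medium, the serum and the phorbol ester changed together with the cell line and cannot be told apart from it, and the 2 media are known to differ in their amino acids. The study also reports a shorter doubling time for B16 than for melan-a in log phase, and its part in the results was not tested. Each group is a single cell line, so the replicates measure repeated cultures and not different tumors.

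Serine is made from the glycolytic intermediate 3-phosphoglycerate, and PHGDH catalyses the committing step. Serine passes a carbon to tetrahydrofolate, and in mitochondria MTHFD2 oxidises the product of that step on the way to formate, which the cytosol uses for purines and thymidylate. Serine also gives the carbon skeleton of cysteine in transsulfuration, whose last enzyme is CTH (cystathionine gamma-lyase), while SLC7A11 is the light chain of the exchanger that imports cystine in exchange for glutamate. In mammalian cells these genes are known targets of ATF4, the transcription factor of the amino acid response, and Slc7a11 is also a known target of NRF2, the factor of the oxidative stress response.

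The RefSeq gene table places Phgdh at chr3:98313171-98339969, Cth at chr3:157894248-157925081, Slc7a11 at chr3:50364936-50499087 and Mthfd2 at chr6:83305704-83326011 (GRCm38.p6). For 3 of the 4 genes the RefSeq promoter table (same build) holds a window, and the 250 bases before the transcript start it uses are given here because the 4 genes were higher in the same line. The stretches for Mthfd2 and Slc7a11 end at a start that lies inside the annotated span of the gene. All are written 5′ to 3′ on the strand of the gene, which is the minus strand for each. Capitals mark the matches of any of 4 motifs, searched on both strands: TGATGNAA (the composite site of ATF4 with C/EBP), TGACNNNGC (the antioxidant response element of NRF2), CACGTG (the E-box of MYC) and CCAAT (the box of NF-Y, added after the windows were seen). No match of one motif overlapped a match of another.
Phgdh, chr3:98339970-98340219: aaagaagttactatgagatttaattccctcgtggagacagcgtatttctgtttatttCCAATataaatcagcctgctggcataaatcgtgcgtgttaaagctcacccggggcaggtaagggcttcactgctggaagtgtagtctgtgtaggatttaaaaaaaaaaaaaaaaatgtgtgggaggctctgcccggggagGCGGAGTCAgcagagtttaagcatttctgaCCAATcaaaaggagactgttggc
Mthfd2, chr6:83317605-83317854: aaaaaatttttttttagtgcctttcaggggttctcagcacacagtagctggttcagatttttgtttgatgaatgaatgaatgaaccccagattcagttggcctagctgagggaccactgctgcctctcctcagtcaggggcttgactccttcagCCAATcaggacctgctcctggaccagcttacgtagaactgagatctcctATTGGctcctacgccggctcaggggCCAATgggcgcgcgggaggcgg
Slc7a11, chr3:50443614-50443863: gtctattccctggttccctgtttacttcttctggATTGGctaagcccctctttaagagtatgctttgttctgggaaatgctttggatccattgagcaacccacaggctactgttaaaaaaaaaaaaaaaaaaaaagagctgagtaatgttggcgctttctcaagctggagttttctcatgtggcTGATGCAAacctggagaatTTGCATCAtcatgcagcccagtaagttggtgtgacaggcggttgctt

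The Slc7a11 stretch held 2 matches of the ATF4 motif on opposite strands, TGATGCAA from 66 to 59 and TTGCATCA from 47 to 40 bases before the start. This motif occurs in 3.45% of the 32851 windows of the table. The Phgdh stretch held the NRF2 motif once, from 53 to 45 bases before the start, a motif found in 10.2% of all windows. CCAAT, found in 33.8% of all windows, occurred 3 times for Mthfd2, 2 times for Phgdh and 1 time for Slc7a11, and CACGTG (6.02% of windows) in none of the 3. These matches describe the letters of the windows, and no binding was measured. Cth is named only.

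Brightness differed between the arrays, with a median summed signal of both dyes between 780 and 4308, and on the dimmest array 81.6% of the probe spots exceeded the limit of 400 used here. On array 1 99.998% exceeded it, so the limit removed almost no probe spot there. The negative control spots of array 1 had median signals of 252 for B16 and 283 for melan-a. The log2 ratios of any pair of arrays correlated over all probes with an r between 0.07 and 0.61, lowest for arrays 1 and 4. Of the 39687 probes with a value on at least 3 arrays, 2504 were higher in B16 (6.31%) and 2076 lower (5.23%) at a limma adjusted p under 0.10 and a fold over 1.5. At an unadjusted p under 0.05 and without a fold limit, 5111 were higher and 4357 lower. Of the 32427 probes with a value on every array, 10.8% were higher in B16 on all 6 and 8.37% lower on all 6. Of 14 melanocyte markers the study list held 3 under a symbol. Each was listed because it differed on these arrays, so they could not check the identity of the lines. Oca2, which encodes a melanosomal transporter, was lower in B16 (5.86-fold higher in melan-a, limma adjusted p = 0.0119), though not on every array (highest log2 ratio 0.06). The receptor gene Kit was also lower (1.85-fold higher in melan-a, adjusted p = 0.00266 from limma). Gpnmb was 2.08-fold higher in B16, with 3 of its 4 candidates past the thresholds without replicate 2, and all 4 are also the candidates of Gart. Among 17 fibroblast, keratinocyte, immune and endothelial markers, only Col1a1 was found, 7.19-fold higher in melan-a (limma adjusted p = 0.0158), and its part in the results below was not tested. The ratios are relative to the other transcripts of the same array, since both dyes were normalized to each other, and in such bulk RNA fewer expressing cells and less RNA per cell cannot be told apart.

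The 2 entries of Phgdh have the highest listed folds of the 4 genes. The entry under accession NM_016966 matched the single probe A_51_P408729, with B16 signals of 5315, 8396, 17286, 25362, 39392 and 11890 on arrays 1 to 6, against melan-a signals of 566, 494, 2796, 1093, 9708 and 1739 (normalized mean signals, arbitrary units). Its log2 ratio of B16 over melan-a was 3.23, 4.09, 2.63, 4.54, 2.02 and 2.77, with a mean of 3.21 ± 0.95 (SD, n = 6), or 9.27-fold. B16 was higher on every array, by between 4.06-fold on array 5 and 23.2-fold on array 4. Array 4 had the lowest array weight in limma (0.48). This probe varied more between arrays than most: its SD was larger than that of 96.6% of the probes.

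The second Phgdh entry, the cDNA clone AK015074, matched the single probe A_52_P94150 and was far steadier. Its log2 ratio was 2.52, 2.43, 2.28, 2.40, 2.57 and 2.10, with a mean of 2.39 ± 0.17 (SD, n = 6), or 5.22-fold, and only 5.74% of the probes had a smaller SD. The B16 signal lay between 3829 and 21296 and the melan-a signal between 666 and 3578. The ratio of the first entry exceeded that of the second on arrays 1, 2, 3, 4 and 6, by 0.71, 1.66, 0.34, 2.13 and 0.67 on the log2 scale, and the order was the opposite on array 5, where the first minus the second was -0.55. Over the 6 arrays the 2 probes had a Pearson r of 0.02, given as a description because they share the same arrays. The files do not show whether both probes read the same Phgdh transcript.

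**Figure D1:**
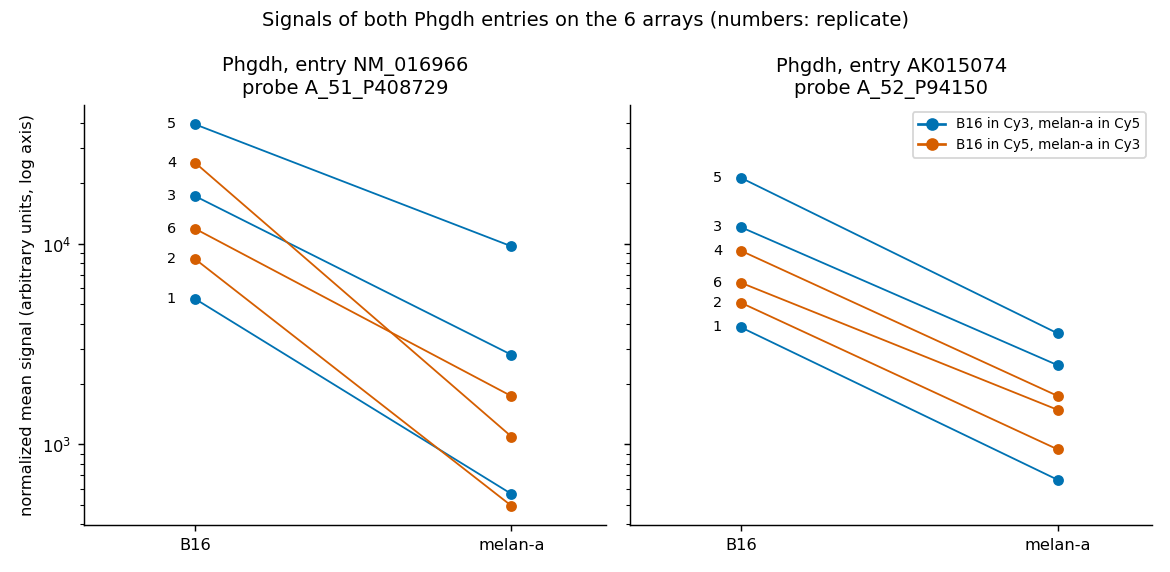
Normalized mean signal of B16 (left of each panel) and melan-a (right) for the probes of the 2 Phgdh entries, on a log axis in arbitrary units; each line is 1 array, numbered by replicate and coloured by labelling. The lines of the AK015074 entry are nearly parallel, with folds between 4.30 and 5.95, while those of the NM_016966 entry differ in slope, with folds between 4.06 and 23.2.

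Mthfd2, whose product is the mitochondrial folate dehydrogenase and cyclohydrolase, had a listed fold that 5 probes matched, with mean log2 ratios of 1.78 to 1.79 (3.44-fold to 3.45-fold higher in B16). The same 5 probes also match the listed folds of Hnrnpab, Cnot6 and Cdca7, and the files do not say which of them reads Mthfd2. All 30 values were positive, and 29 of them exceeded 1 on the log2 scale. The probes were picked by their mean, so such counts, here and for Cth and Slc7a11 below, largely follow from that choice. They also pool probes that can read other genes, and do not show how constant the ratio of 1 gene is. Probe A_52_P544032 was the steadiest candidate, with a lowest log2 ratio of 1.27, a median of 1.74 and a highest of 2.41 (SD 0.39). Probe A_51_P253803 was the most variable, from 1.01 to 3.60 with a median of 1.52 (SD 1.01).

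The candidates of Mthfd2 differed widely in signal. Probe A_52_P20966 was the brightest, with B16 signals between 19285 and 61675, against 3486 to 30030 in melan-a, and it reached up to 93.0% of the highest B16 signal of an array. Its log2 ratios of 2.76, 1.98, 1.35, 2.29, 1.04 and 1.29 on arrays 1 to 6 were lowest on arrays 5, 6 and 3, and both signals were highest on arrays 5 and 3. Probe A_51_P202857 was the dimmest, with B16 signals between 699 and 3541, against 238 to 1474 in melan-a, and its melan-a signal exceeded the 95th percentile of the negative control spots on only 4 of 6 arrays. The remaining candidate, A_52_P184149, had log2 ratios between 0.99 and 3.26.

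Cth, the gene of the cysteine-forming enzyme, had a listed fold matched by 4 probes, each with a mean log2 ratio of 1.59 (3.01-fold to 3.02-fold higher in B16). These 4 probes are also the candidates of Hist1h2ab (now H2ac4), of a kinesin-like entry and of an entry of unknown identity, 4 entries in all. Of the 24 values 23 were positive, and the exception was array 2 of probe A_52_P420466, at -0.34. On the other arrays that probe had log2 ratios of 0.97, 2.08, 2.31, 2.27 and 2.26, so its mean of 1.59 ± 1.08 (SD, n = 6) lies well below its median of 2.17.

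The other Cth candidates showed B16 above melan-a on all 6 arrays. Probe A_52_P232314 stayed between 1.34 and 1.82 on the log2 scale (SD 0.17), with B16 signals of 2172 to 14383, against 648 to 4747 in melan-a. Probe A_52_P399604 ranged from 0.72 on array 1 to 2.46 on array 4, and on both of these arrays its melan-a signal lay below the 95th percentile of the negative controls, which it exceeded on the other 4. Probe A_51_P431737 ranged from 0.09 on array 1 to 2.60 on array 5, and its melan-a signal of 192 to 403 exceeded the 95th percentile of the negative controls on 1 array only, so that its denominator lies near the signal of spots that carry no target. Which of the 4 probes reads Cth is not shown by the files.

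Slc7a11, the gene of the cystine transporter, had 3 candidates with a mean log2 ratio of 1.492 to 1.496 (2.81-fold to 2.82-fold higher in B16), which are also the candidates of Slc25a13 and of a hypothetical protein entry. All 18 values were positive, and 14 exceeded 1 on the log2 scale. The lowest, median and highest log2 ratios were 0.15, 1.63 and 2.41 for probe A_51_P129502, 0.70, 1.47 and 2.55 for A_51_P230195, and 0.66, 1.22 and 3.37 for A_51_P251352. The highest value stood on array 4 for A_51_P129502 and A_51_P251352, and on array 3 for A_51_P230195, which was lowest on array 4. Probe A_51_P129502 was dim, with B16 signals of 583 to 1697, against 264 to 549 in melan-a, and in melan-a both it and A_51_P230195 exceeded the 95th percentile of the negative controls on 5 arrays.

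**Figure D2:**
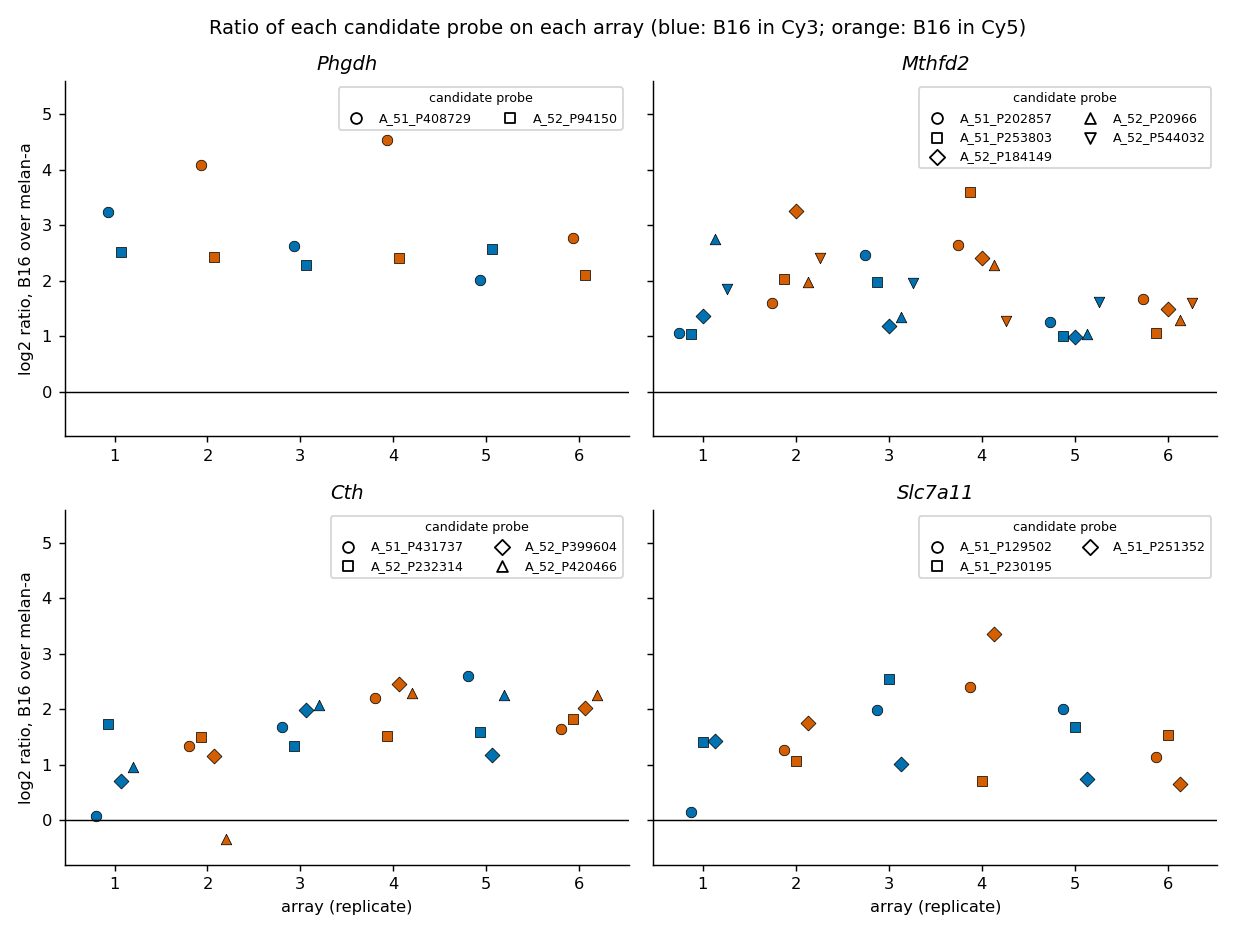
Log2 ratio of B16 over melan-a (vertical axis) on each of the 6 arrays (horizontal axis) for every candidate probe of the 4 genes; symbols stand for probes, colours for the labelling. All values but 1, array 2 of a Cth candidate at -0.34, lie above 0, which largely follows from picking the probes by their mean. The square symbols of Phgdh and Cth (probes A_52_P94150 and A_52_P232314) show the smallest spread.

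The limit of the fold match of 0.00051 lay between the following probes. For the 2 entries of Phgdh the kept probe lay 0.000154 and 0.000434 from the listed fold (melan-a over B16), and the nearest probe outside lay at 0.00262 and 0.000603, with log2 ratios of 3.25 and 2.39. For Mthfd2, Cth and Slc7a11 the farthest kept candidate lay at 0.000404, 0.000394 and 0.000473 and the nearest probe outside at 0.00078, 0.000549 and 0.000563. Those outside probes had log2 ratios of 1.78, 1.59 and 1.496.

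The order of the mean ratios, Phgdh, Mthfd2, Cth and Slc7a11, is that of the listed folds used to find the probes. On single arrays the ranges of the candidates mostly overlapped. Both Phgdh probes were above all 5 Mthfd2 candidates on arrays 5 and 6, and the ranges overlapped on the other 4 arrays. They were above every Cth candidate on 3 arrays and above every Slc7a11 candidate on 4. The candidates of Mthfd2 and Cth overlapped on 5 of 6 arrays, those of Cth and Slc7a11 on 5, and those of Mthfd2 and Slc7a11 on all 6. Since these ranges hold probes of other genes too, they do not show whether Mthfd2, Cth and Slc7a11 themselves differ in ratio. These are comparisons of ratios, and no level of one probe was set against another's.

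The dye offers a comparison that the fold match did not use. The study's SAM test sets the mean against the spread over these arrays, and a dye difference adds to that spread. Probes with a large labelling effect were thus less likely to be listed, and the shares over all probes below are no even comparison. With 3 arrays in each orientation, the difference between standard and flip arrays is independent of the mean over the 6, and it was tested with limma over all 39687 probes, of which 16 had a labelling effect at an adjusted p under 0.10 (0.0403%) and 5224 an unadjusted p under 0.05. Of the 14 candidates 0 were past this threshold, and 3 had an unadjusted p under 0.05. So few of all probes were past it that 0 of 14 says little about the candidates. The lowest adjusted p was 0.28, for the Mthfd2 candidate A_52_P184149, whose log2 ratio averaged 1.18 ± 0.19 on standard arrays and 2.39 ± 0.88 on flip arrays (SD, n = 3 each), a difference of -1.21 (SE 0.40, unadjusted p = 0.0137 from limma).

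The variable Phgdh probe A_51_P408729 showed a similar difference. Its log2 ratio averaged 2.63 ± 0.61 on standard arrays and 3.80 ± 0.92 on flip arrays (SD, n = 3 each), with a difference of -1.17 (SE 0.46, unadjusted p = 0.032 and adjusted p = 0.34, limma). The steady Phgdh probe A_52_P94150 averaged 2.46 ± 0.15 on standard and 2.31 ± 0.18 on flip arrays, a difference of 0.15 (SE 0.22, adjusted p = 0.81 from limma). The contrast between the 2 probes was not tested. The Slc7a11 candidate A_51_P230195 leaned the other way, at 1.88 ± 0.59 on standard and 1.10 ± 0.42 on flip arrays (adjusted p = 0.38, limma). Over the Cth candidates the difference lay between -0.59 and 0.37, with an adjusted p of at least 0.56 from limma. Of the means in a single orientation, which share arrays with the mean that found the probes, the lowest was 1.06 for the Slc7a11 candidate A_51_P251352 on standard arrays.

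**Figure D3:**
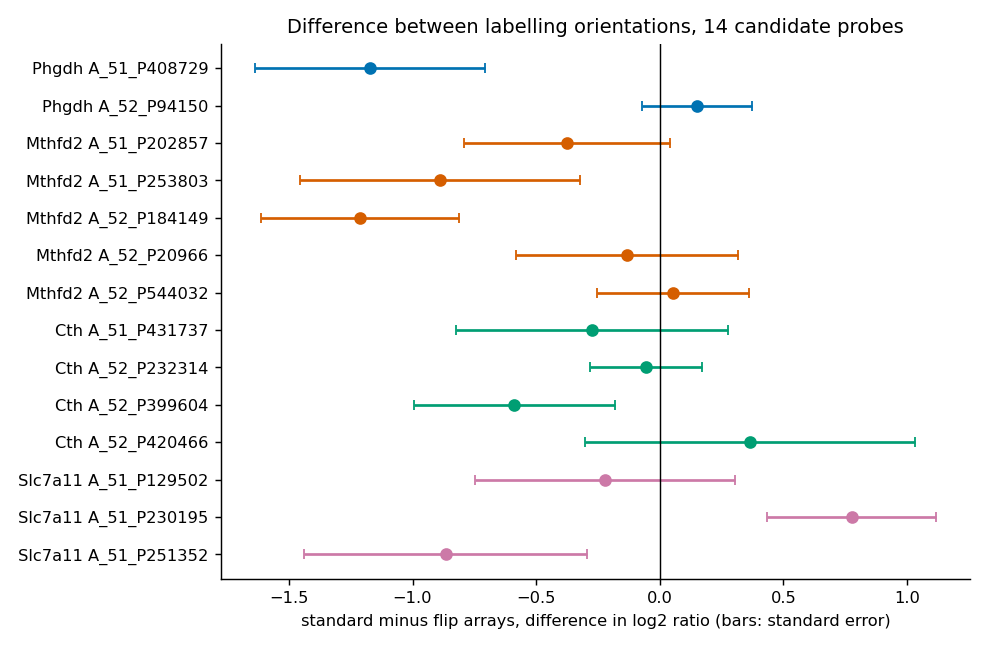
Difference in log2 ratio (B16 over melan-a) between the 3 standard and the 3 flip arrays for the 14 candidate probes; points are fitted differences and bars 1 standard error from limma. The differences range from -1.21 to 0.78, and none of them was past an adjusted p of 0.10, which only 16 of 39687 probes were.

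Genes whose log2 ratios followed those of Phgdh over the 6 arrays were looked for among 354 listed genes with a symbol and a single candidate of their own. For probe A_51_P408729 the highest Pearson r were 0.93 for Fscn1, the gene of an actin-bundling protein, 0.92 for Trf, the gene of transferrin, and 0.91 for Uhrf1, which acts in maintenance of DNA methylation. Their mean log2 ratios were 1.84, 1.90 and 2.63, and the median r over the 354 genes was -0.20. For probe A_52_P94150 they were 0.88 for Phf1, 0.86 for Septin5 and 0.82 for Adam23, with mean log2 ratios of -1.10, -1.64 and -2.74, and a median r of 0.01. The 2 probes shared none of their 3 closest genes. With an r of 0.02 between the probes, no gene could have so high an r with both, so this says nothing further. The coefficients named are the highest of 354 over 6 points that share arrays and brightness, and they describe the ranking only.

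The remaining genes of the surrounding pathways were read from lists of 132 genes, the 4 genes above left out. A gene has a value only where the study listed it as differing on these same arrays, so its direction is that of the study list and is not independent evidence. Its candidates were found by the listed fold, so their adjusted p and their calls with a replicate left out largely follow from that choice. A gene was counted as higher or lower where every candidate probe was past the limma thresholds. Several candidates of 1 gene can read other genes and are not repeated measures of it. A gene with many candidates is more easily left undecided. Of the 132 genes 45 were found, 28 of them higher in B16, 6 lower and 11 with only some candidates past the thresholds. Over all listed entries with a symbol, 890 of 2413 were higher by this rule (36.9%) and 756 lower (31.3%). The median log2 ratio of the found entries was 0.99, against 0.66 for listed entries with a symbol and -0.01 for all probes tested. The 87 genes not found have no named probe here, and nothing is known of their ratio.

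In serine synthesis, Psat1, which encodes the transaminase after PHGDH, had a mean log2 ratio of 0.97 (1.96-fold), with 3 of its 4 candidates past the thresholds and an adjusted p between 0.00259 and 0.147 (limma). Psph, which encodes the last enzyme of that branch, was not found. Among 26 other folate genes 9 were found, 8 higher and 1 lower in B16. Tyms, the thymidylate synthase gene, was 2.55-fold higher (adjusted p up to 0.0106, limma), Aldh1l1, whose product oxidises formyl-folate in the cytosol, 2.50-fold, and Mthfd1, the cytosolic trifunctional enzyme gene, 2.45-fold. Shmt2, which encodes the mitochondrial enzyme that loads the serine carbon on folate just before MTHFD2, was 2.24-fold higher (adjusted p up to 0.0141 over 6 candidates, limma).

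Mthfd1l, Gart and Atic were also higher in B16, and Ggh, which encodes a hydrolase of folate polyglutamates, was the lower one; these 4 were named after their values were seen. Mthfd1l encodes the mitochondrial formate-producing ligase, and Gart and Atic the purine synthesis enzymes that use formyl-folate. Gart has the same 4 candidates as Gpnmb. Without replicate 2, 3 of 4 Gart candidates and 2 of 3 Atic candidates were past the thresholds, and 1 of 2 Ggh candidates without replicate 3 or 6. Shmt1 was not found.

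Around Cth, 2 of 12 other genes of the methionine cycle and transsulfuration were found. Ahcy, which encodes the hydrolase that releases homocysteine, was 1.90-fold higher in B16 over 11 candidates (limma adjusted p up to 0.018). Suox, the sulfite oxidase gene, had a mean log2 ratio of -0.92 with 4 of 5 candidates past the thresholds, and Cbs, whose product forms cystathionine, was not found. Around Slc7a11, 5 of 19 other genes of cystine uptake, glutathione and thioredoxin were found, 3 of them higher and 1 lower. Chac1, which encodes a glutathione-degrading enzyme, was 2.46-fold higher in B16, Gsr, the glutathione reductase gene, 2.32-fold, and Txnrd1, the cytosolic thioredoxin reductase gene, 1.92-fold. Gpx1, which encodes a glutathione peroxidase, was lower in B16, with a mean log2 ratio of -1.05 (2.07-fold higher in melan-a, limma adjusted p up to 0.0197). Txnrd2 had a mean log2 ratio of 0.64 with 15 of 18 candidates past the thresholds. Txnrd1 had 5 of 6 candidates past the thresholds without replicate 2, 3, 4 or 6, with a highest adjusted p of 0.283 (limma) without replicate 2. Slc3a2, the heavy chain partner of SLC7A11, and Gclc and Gclm, the subunits of the enzyme that starts glutathione synthesis, were not found.

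Of 15 amino acid transporters 3 were found, and they differed in direction. Slc38a2, a neutral amino acid transporter gene of the starvation response, was 1.89-fold higher in B16, and Slc7a2, which encodes a cationic amino acid transporter, was lower, with a mean log2 ratio of -0.98. Slc1a4, a serine and alanine carrier gene, had a mean log2 ratio of 0.62 with 15 of 18 candidates past the thresholds. Slc38a2 had 5 of 6 candidates past them without replicate 2 or 3, and Slc7a2 had 2 of 3 without replicate 2, 3 or 6.

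Of 25 genes of the amino acid response 8 were found, 4 higher and 2 lower in B16. Aldh18a1, which encodes the first enzyme of proline synthesis, was 2.18-fold higher (limma adjusted p up to 0.0096), Atf4 2.05-fold, Trib3, which encodes a pseudokinase induced by ATF4, 2.04-fold, and Asns, the asparagine synthetase gene, 2.01-fold. Atf5, which encodes a factor related to ATF4, had a mean log2 ratio of -1.05 and was lower in B16, as was the lipoprotein receptor gene Vldlr, named after its value was seen. Eif2ak4 (the kinase GCN2) and Got1 were undecided, and Ddit3 was not found. Some calls were lost when a replicate was left out, by 1 or 2 candidates each. Atf4 shares all of its 14 candidates with Dars, and 12 of them were past the thresholds without replicate 2 or 6 and 13 without replicate 3 or 5, with mean log2 ratios between 0.70 and 1.18 over these fits and a highest adjusted p of 0.156 (limma). Trib3 had 8 of 9 candidates past them without replicate 2, 3 or 5, Asns 8 of 9 without replicate 3 or 5, and Atf5 1 of 2 without replicate 2, 3 or 6.

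Aminoacyl-tRNA synthetase genes, whose products charge tRNAs with amino acids, were found for 12 of 20, 7 of them higher in B16 and none lower, with 5 undecided. The largest ratios were those of Iars (2.90-fold, limma adjusted p up to 0.00497 over 2 candidates), Kars (2.36-fold), Rars (2.31-fold), Vars (2.30-fold) and Gars (2.27-fold). Each of these 5 kept every candidate past the thresholds without any single replicate. This largely follows from picking the probes by their mean on the same arrays. Of 18 other NRF2 target genes 6 were found, 5 higher and 1 lower. Nqo1, the quinone reductase gene, was 2.62-fold higher in B16 (adjusted p up to 0.0244 over 5 candidates, limma), and Pgd and Tkt, of the pentose phosphate pathway, were 2.16-fold and 1.97-fold higher. Hmox1, named after its value was seen, was also higher, with 8 of 9 candidates past the thresholds without replicate 1 or 4 and 7 without replicate 2. Me1, the malic enzyme gene, was lower in B16 with a mean log2 ratio of -1.26 (2.40-fold higher in melan-a, limma adjusted p = 0.00115, 1 candidate probe).

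**Figure D4:**
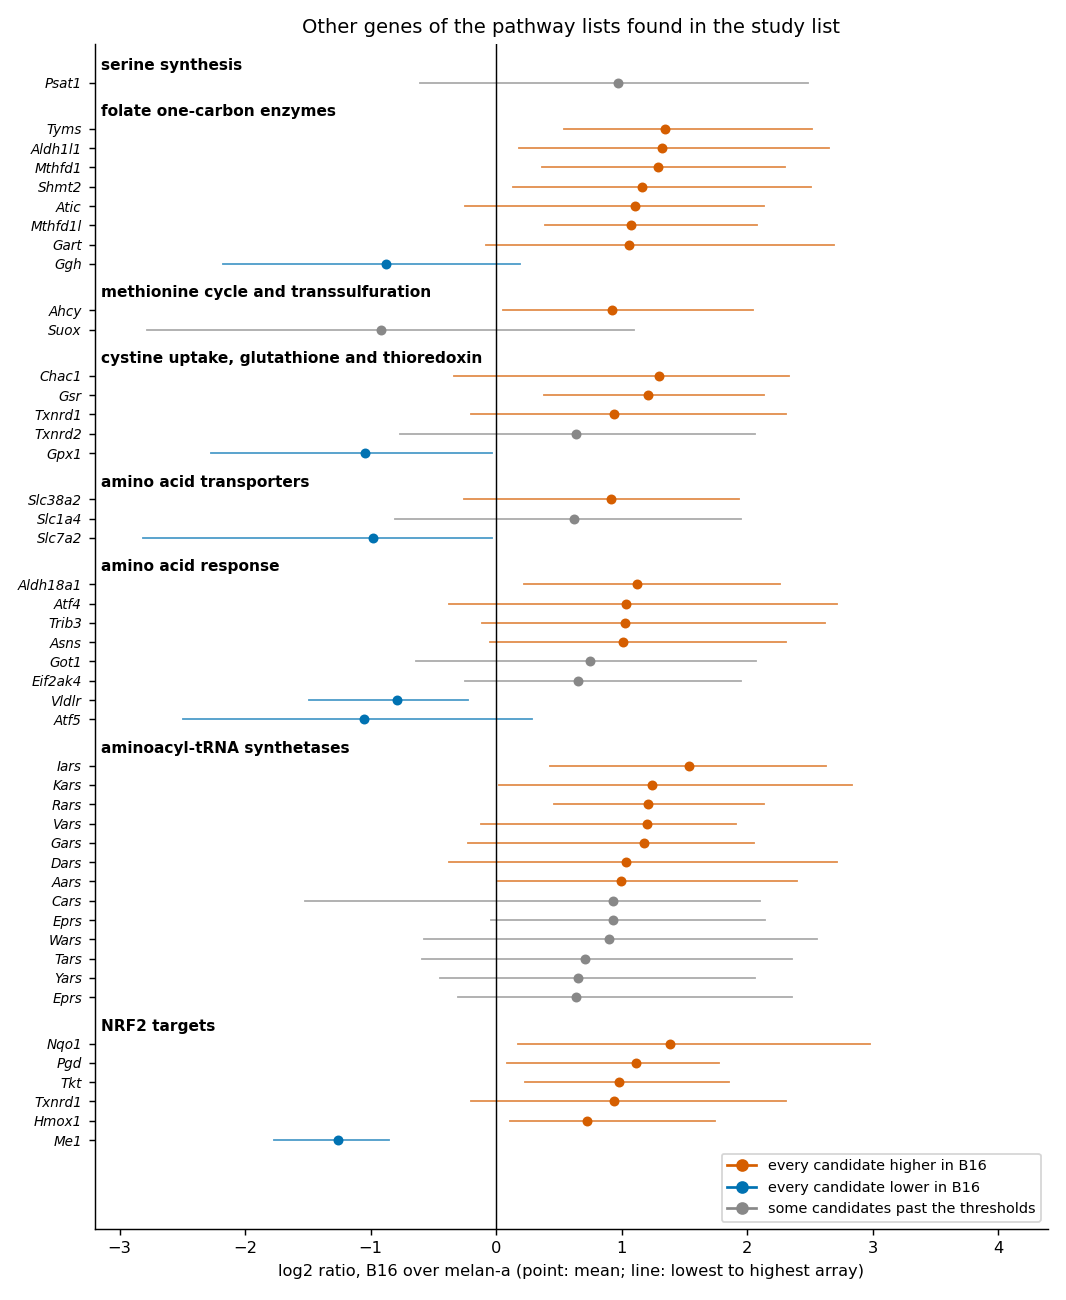
Mean log2 ratio of B16 over melan-a (points) and the lowest to highest value over all arrays and candidate probes (lines) for 44 of the 45 list genes found, grouped by list; Txnrd1 stands in 2 lists and Eprs has 2 entries. Orange genes have every candidate higher in B16 (27), blue every candidate lower (6) and grey only some past the thresholds (11).

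Of these 45 genes 36 have a promoter window in the RefSeq table. The ATF4 motif TGATGNAA, present in 3.45% of all windows, occurred in those of 7 of them: Aars, Asns, Chac1, Gars, Got1, Tars and Vldlr. Of these Aars, Asns, Chac1 and Gars were higher in B16, Vldlr was lower and Got1 and Tars were undecided. The lists hold genes known as ATF4 targets, so this count was not tested. CCAAT, found in 33.8% of all windows, occurred in 21 of the 36 windows, the NRF2 motif TGACNNNGC in 4 (10.2% of all windows) and CACGTG in 5 (6.02%). The 4 genes with the NRF2 motif were Txnrd1, Aars, Asns and Slc38a2.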

How the data were processed

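The authors deposited log2 signals of both dyes, which ImaGene 6.0.1 wrote, per the file headers, after a lowess normalization within each array (smoothing 0.2, background not subtracted). The deposited files hold no depth, and the number of arrays limits the precision. The dye of each image was read from the header, since replicate 3 lists Cy5 first. Mean signals were turned to a log2 ratio of B16 over melan-a, only spots whose signals summed to more than 400 were kept (the study sets this limit on background-subtracted signals), 10 spots of a repeated probe were averaged, and a probe needed 3 of 6 arrays. A one-class model was fitted with limma 3.58.1 (R 4.3.3) over 39687 probes, with Benjamini-Hochberg adjustment, in place of the study's SAM, which was run as an alternative with 64 sign permutations. The labelling effect came from a limma model with the orientation as covariate. Replicates are biological per the study. One list gene is counted but not reported here by name or value. Per the file headers, the image of replicate 1 was quantified on a separate day. It had an array weight of 0.76 in limma, and replicate 4 had the lowest weight, 0.48. Arrays 1 and 4 had the lowest correlation of any pair (r = 0.07). The largest log2 ratios among the candidates of Phgdh, Mthfd2 and Slc7a11 (4.54, 3.60 and 3.37) stood on array 4, and that of Cth (2.60) on array 5.

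Genes were named through the fold listed by the study. Of 3549 entries, 2413 got a symbol (2282 by accession, 128 by listed symbol or synonym and 3 by gene name in words), with a median of 5 candidate probes, and 490 had a candidate of their own. The genes, the lists and the rule for named genes (4 members with every candidate, up to 5 list genes with the largest ratio, key genes, and the 3 most similar patterns) were chosen with earlier results of these data known. The limma fit was tested on simulated data: it found 65 of 100 probes with a change of 1 on the log2 scale and 96 of 100 with a change of 2, besides 7 false calls. The simulated noise was normal, independent between probes and of equal size on all arrays, while the array weights of the data ranged from 0.48 to 1.65. These numbers therefore do not carry over to the data. Tables were joined with pandas 2.3.3 and numpy 2.4.6 in Python 3.11.15, and plots drawn with matplotlib 3.10.9. The deposited series table equals the array files' log2 ratios in 4 columns, while its columns of replicates 4 and 5 hold each other's array, so the array files were used. Alternatives were median signals, no limit or a limit of 800, centring, array weights, each orientation alone, an orientation term and leaving out each replicate.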

Additional observations from a re-analysis of the deposited data

How the results depend on the processing

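The mean log2 ratios of the 14 candidate probes were fixed by the fold match on the same arrays, so their values under other settings only describe them. They lay between 1.06 and 3.80 over median signals, no limit or a limit of 800, centring, array weights, each labelling orientation alone and each replicate left out. Leaving out a replicate gave 2.35 to 3.45 for the Phgdh probes, 1.42 to 1.94 for the Mthfd2, 1.39 to 1.98 for the Cth and 1.12 to 1.76 for the Slc7a11 candidates. The Phgdh probe A_52_P94150 had 2.65 ± 0.31 with median signals, against 2.39 ± 0.17 with mean signals (SD, n = 6), the only value that moved by more than the SD with mean signals. The probes higher and lower in B16 numbered 2588 and 2142 by SAM, and between 2011 and 2815 and between 1576 and 2235 with a replicate left out. Pathway genes lower in B16 numbered between 3 and 7 with a replicate left out (3 without replicate 3 or 6), and those higher between 20 and 27, with 12 of the 34 calls lost without at least 1 replicate. With a labelling term, 33 list genes were higher and 7 lower. The labelling effect of the candidates was past the threshold in 0 cases under median signals, no limit, centring and each replicate left out. In these settings at most 58 of all probes were past it, so this says little about the candidates. The one-class fit of the ratio on each array already pairs the lines, and no further block was fitted. The series table could not be joined to probes and the files hold no background columns, so an alternative from that table and one with normexp were not run. Without a background signal, ratios of dim candidates such as A_51_P431737 are limited by the signal over the negative controls.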
